A study of Rattus norvegicus with 32 samples.

Results

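Normal mammary gland of Cop rats was set against normal mammary gland of WF rats, both of them inbred strains. The 5 arrays titled as single Cop samples and the 5 titled as single WF samples were taken, which made 10 of the 32 arrays of the series. The labels gave no treatment, transgene or deletion for either strain, so strain was the only labelled difference, and they named no age, sex, oestrous stage, parity or batch. Beside the pair the series held 5 arrays each of the inbred strains F344, ACI and BUF/N, 5 of an F1 hybrid (a Cop by F344 cross), and a pooled array each for Cop and for F344 that entered no group. The labels did not say whether the 5 samples of a strain came from separate animals, so p-values measured only the spread between these samples.

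The mammary gland is a branching epithelium set in a fat pad. Its ducts have an inner layer of luminal cells, which carry simple keratins and tight junctions and make milk proteins under prolactin, and an outer basal layer of contractile myoepithelial cells. The fat pad holds adipocytes, fibroblasts, vessels and immune cells, and skeletal muscle lies beside it. Cop rats are known for resistance to induced mammary carcinoma and WF rats for susceptibility, and crosses between them have been used to map mammary carcinoma susceptibility loci, known as Mcs loci.

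Each array gave linear signals at 8799 probe sets, in arbitrary units, computed by the authors, and the trimmed mean of these values was the same on every array. Median signals were 71.7 to 77.3 on the Cop arrays and 78.4 to 86.8 on the WF arrays, and these ranges did not overlap. For the Gapdh control probes, the 3′ signal divided by the 5′ signal, a check of RNA integrity, was 0.910 to 1.14 in Cop and 0.924 to 1.35 in WF, the highest on WF 1. For the beta-actin control probes the ratio was 1.10 to 1.72 in Cop, the highest on Cop 3, and 1.01 to 1.25 in WF. Log2 signals correlated across 5039 probe sets at 0.929 to 0.958 among Cop arrays, 0.886 to 0.965 among WF arrays and 0.841 to 0.954 between the strains, as a description in which probe sets are not independent. Outside the pair, 4 arrays lay apart from their groups: the correlations of F1 2 and F1 3 to F1 1, 4 and 5 were 0.846 to 0.893 and those of ACI 2 and ACI 5 to ACI 1, 3 and 4 were 0.876 to 0.913, against 0.946 to 0.978 among the remaining F1 and 0.948 to 0.960 among the remaining ACI arrays. They entered the estimate of the spread but not the means of Cop and WF. No replicates held identical values, and precision is limited by the number of arrays.

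Of the 5039 probe sets tested, 647 (12.8%) differed between Cop and WF at an adjusted p under 0.05, by limma with Benjamini-Hochberg adjustment. The log2 signal was higher in Cop at 283 (5.62%) and lower in Cop at 364 (7.22%). The difference passed 2-fold at 78 of the higher and 156 of the lower probe sets, and the signals of the strains did not overlap at 415 of those called (8.24% of all tested). Without the 4 F1 and ACI arrays 1006 were called, 583 of them lower in Cop. The median log2 change over all tested probe sets was -0.05. Of the calls 43.7% were higher in Cop, against 51.2% after quantile normalization and 62.1% after centring each array on its median, which moved the median change of all probe sets by 0.11. The direction split of the calls therefore moved with the scaling. With 1 probe set per gene, 390 of 3053 genes were called (12.8%), 169 higher (5.54%) and 221 lower in Cop (7.24%), with a median log2 change of -0.05. The gene lists below are read against these shares.

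Most luminal epithelial genes tested were lower in Cop. Of 14 tested luminal markers 9 fell and none rose, with a median log2 change of -1.10. The 9 were the simple keratins Krt8, Krt18 and Krt19, the tight junction proteins Cldn3, Cldn7 and Ocln, the adhesion protein Epcam, the prolactin receptor Prlr and the receptor kinase Kit. Krt8 signals were 395, 488, 638, 352 and 764 in the Cop arrays, against 1243, 1049, 1590.3, 986 and 922 in the WF arrays (log2 change -1.17, SE 0.22, adjusted p = 0.00039). Every Cop array lay below every WF array, and Cop 3 and Cop 5 were the highest of the Cop arrays. Cldn3 signals were 332, 422, 522, 254 and 672 in the Cop arrays, against 1727, 1306, 1171, 1209.5 and 1176 in the WF arrays (log2 change -1.65, SE 0.24, adjusted p = 1.8e-05), again with no overlap. A second Cldn3 probe set gave -1.63. Epcam averaged 725 ± 202 in Cop and 1744 ± 332 in WF (SD, n = 5 each), with a log2 change of -1.29. The log2 changes of the others were -0.80 for Krt18, -1.15 for Krt19, -1.15 for Cldn7, -1.06 for Ocln and -1.77 for Kit. The count of 9 was the same under every alternative tried and with any 1 array of the pair left out.

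The luminal list was not moved as a whole. The 5 members that did not pass were Cd24, Tspan8, Aqp5, Gata3 and Lcn2, with log2 changes of -0.06, 0.22, -0.09, 0.44 and -0.59. Lcn2 encodes lipocalin 2, a secreted iron-chelator carrier of epithelia and neutrophils. Its signals were 1151, 1982, 2013, 1277 and 1657 in the Cop arrays, against 1852, 2009.5, 4792, 2112 and 2020.5 in the WF arrays, with WF 3 far above the rest (adjusted p = 0.27). The other groups averaged 2742 ± 1244 in BUF/N, 1694 ± 652 in F1, 72.3 ± 20.3 in F344 and 75.2 ± 37.4 in ACI (SD, n = 5 each), so Lcn2 was high in Cop, WF, BUF/N and F1 and low in F344 and ACI.

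The summed signal of the 14 luminal markers ran from 4878 to 8270 in Cop and from 10864 to 15288 in WF, without overlap. On each array the mean of the members' log2 signals, centred on all 30 arrays, gave a list score. The luminal score was -0.78, -0.53, -0.06, -0.88 and -0.18 in the Cop arrays, against 0.32, 0.39, 0.44, 0.28 and 0.22 in the WF arrays. Cop 3 and Cop 5 stood nearest to WF. In whole tissue, fewer cells of a type and less RNA per cell cannot be told apart.

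**Figure D1:**
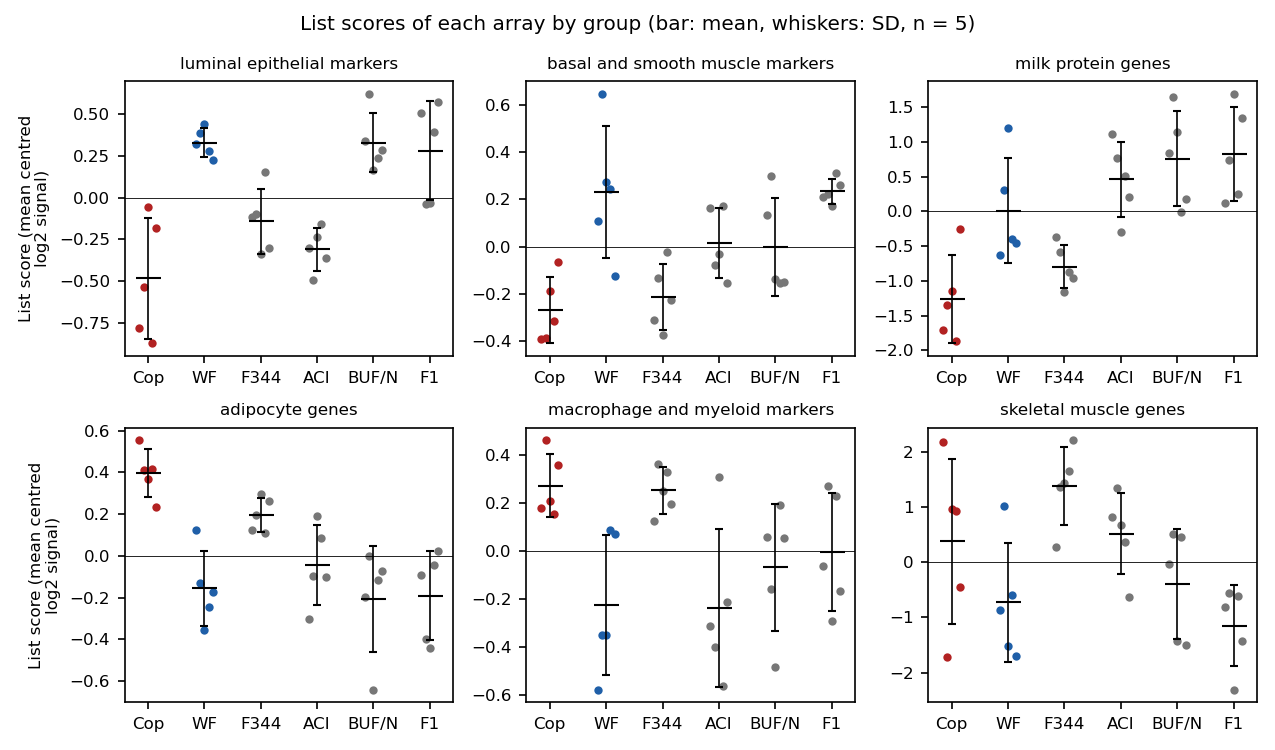
List scores (mean centred log2 signal of the members) of each of the 30 single-sample arrays by group, for 6 gene lists; points are arrays, the bar is the mean and the whiskers the SD (n = 5). Luminal and adipocyte scores of Cop (-0.88 to -0.06 and 0.23 to 0.55) and WF (0.22 to 0.44 and -0.36 to 0.12) do not overlap, while skeletal muscle scores span -1.73 to 2.17 within Cop and -1.70 to 1.03 within WF.

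Milk protein genes followed the same direction for part of their list. Of 10 tested, 4 fell in Cop and none rose, with a median log2 change of -0.94. Csn2, which encodes beta-casein, had signals of 10.8, 26.4, 46.3, 22.0 and 550.5 in the Cop arrays, against 178, 950, 3201, 376 and 243 in the WF arrays (log2 change -3.50, SE 0.97, adjusted p = 0.015). Cop 5 lay far above the other Cop arrays and WF 3 far above the other WF arrays, and Cop 5 overlapped the WF range. The call did not hold without Cop 1 (adjusted p = 0.0501) or without WF 3 (adjusted p = 0.062). Csn3, kappa-casein, had signals of 344.2, 425, 1019, 362 and 1689 in the Cop arrays, against 5937, 3778, 7352, 2891 and 3018 in the WF arrays (log2 change -2.79, SE 0.42, adjusted p = 2.8e-05), with no overlap. Wap, the whey acidic protein of rodent milk, had signals of 6.2, 12.4, 15.5, 7.6 and 54.6 in the Cop arrays, against 181, 282, 1308, 99.4 and 123 in the WF arrays (log2 change -3.40, SE 0.71, adjusted p = 0.0015). Cop 5 and WF 3 were again the highest of their strains, but the strains did not overlap. As 4 of the 5 Cop signals of Wap lay under the floor of 18.3, to which they were raised, the floor sets the size of this change, which ran from -4.13 to -2.19 over the alternatives. Muc1, a membrane mucin of the apical surface, averaged 107 ± 27.9 in Cop and 217 ± 66.2 in WF, with a log2 change of -1.01.

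Other milk genes showed no difference that passed. Csn1s1, alpha-s1-casein, averaged 3983 ± 1162 in Cop and 4686 ± 1279 in WF (-0.25, adjusted p = 0.432), and Lalba, a subunit of lactose synthase, 2009 ± 701 in Cop and 2226 ± 1820 in WF (0.09, adjusted p = 0.915). The remaining 4 were Csn1s2a, Glycam1, Xdh and Mfge8, at log2 changes of -1.07, -0.87, 0.14 and -0.07. The milk score was -1.71, -1.35, -1.14, -1.87 and -0.25 in the Cop arrays, against -0.62, 0.31, 1.20, -0.39 and -0.45 in the WF arrays. Cop 5 lay inside the WF range. Of the genes that carry the prolactin signal, 11 were tested, and Prlr alone passed. Prlr signals were 312, 289, 392, 347 and 336 in the Cop arrays, against 678, 1049.7, 667, 852 and 915 in the WF arrays (log2 change -1.30, SE 0.22, adjusted p = 0.00011), with no overlap, and its other probe sets gave -1.23 and -0.76. Stat5a, the transcription factor downstream of the receptor, changed by -0.16 and did not pass (adjusted p = 0.654).

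The promoters of 3 casein genes are shown because the genes lie on the same chromosome and differed in their result: Csn2 and Csn3 fell in Cop and Csn1s1 did not pass. They are RefSeq windows of the GRCr8 build, 250 bases before to 50 bases after the start of the gene, from the reference genome and not from Cop or WF. Capitals mark the letters TTCNNNGAA, the core that Stat5 is known to bind, which reads the same on both strands.
Csn2 (chr14:20601574-20601873, plus strand): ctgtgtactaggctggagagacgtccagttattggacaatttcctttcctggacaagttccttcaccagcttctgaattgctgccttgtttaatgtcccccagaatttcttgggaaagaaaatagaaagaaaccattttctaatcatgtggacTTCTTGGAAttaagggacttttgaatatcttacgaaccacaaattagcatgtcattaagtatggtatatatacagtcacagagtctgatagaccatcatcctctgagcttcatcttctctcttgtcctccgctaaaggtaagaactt
Csn3 (chr14:20439781-20440080, minus strand): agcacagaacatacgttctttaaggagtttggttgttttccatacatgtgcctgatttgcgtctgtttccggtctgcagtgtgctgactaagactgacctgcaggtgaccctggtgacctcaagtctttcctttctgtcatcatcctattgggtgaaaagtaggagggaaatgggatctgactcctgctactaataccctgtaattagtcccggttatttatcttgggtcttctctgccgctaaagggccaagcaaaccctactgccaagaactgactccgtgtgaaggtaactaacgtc
Csn1s1 (chr14:20638800-20639099, minus strand): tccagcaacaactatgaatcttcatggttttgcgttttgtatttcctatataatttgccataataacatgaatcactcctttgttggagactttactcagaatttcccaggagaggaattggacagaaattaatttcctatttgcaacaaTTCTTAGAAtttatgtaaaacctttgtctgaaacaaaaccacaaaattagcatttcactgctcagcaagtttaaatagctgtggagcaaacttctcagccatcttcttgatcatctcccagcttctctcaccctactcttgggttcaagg

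The motif began 97 bases before the start of Csn2 and 100 bases before the start of Csn1s1, and these letters were not in the Csn3 window. All 10 tested milk genes had a window, and 4 windows held the motif, those of Csn1s1, Csn1s2a, Csn2 and Glycam1. Of the 33469 windows of the same length in the table, 8.87% held it. Among the milk genes lower in Cop 1 of 4 held it, and among those not called 3 of 6. A match is a description and not a site.

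Some basal and smooth muscle genes were lower as well. Of 12 tested, 6 fell, 1 rose and 5 did not pass, with a median log2 change of -0.93. The basal keratins Krt5 and Krt14 were both lower: Krt5 averaged 716 in Cop and 1697 in WF (log2 change -1.49, SE 0.37), and Krt14 averaged 516 ± 286 in Cop and 1342 ± 356 in WF (SD, n = 5 each; log2 change -1.50). Among contractile genes, Cnn1, calponin, had signals of 341, 418, 343.5, 350.4 and 438 in the Cop arrays, against 1039, 1144, 1003, 709.5 and 703 in the WF arrays (log2 change -1.26, SE 0.17, adjusted p = 6.1e-06). Tagln signals were 769, 892, 802, 741 and 1314 in the Cop arrays, against 1489, 2066, 1744, 1839.5 and 1574 in the WF arrays (log2 change -0.97, SE 0.14, adjusted p = 9.8e-06). Neither gene overlapped between the strains, and Cop 5 was high for Tagln. Myh11, smooth muscle myosin, and Actg2, a smooth muscle actin, changed by -1.14 and -1.11. Acta2, the actin shared by myoepithelium and vessel walls, averaged 3028 ± 672 in Cop and 3177 ± 256 in WF (-0.10), a difference within the spread of the arrays. The 6 lower calls held in count under every alternative tried, leaving out each array included. The basal score was -0.39, -0.39, -0.19, -0.31 and -0.06 in the Cop arrays, against 0.11, 0.65, 0.27, 0.25 and -0.12 in the WF arrays, and WF 5 fell inside the Cop range.

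Des, desmin of muscle, was the member that rose. Its signals were 281, 53, 159.8, 130.5 and 56.3 in the Cop arrays, against 23.5, 110.5, 14.4, 24.0 and 16.3 in the WF arrays (log2 change 1.94, SE 0.63, adjusted p = 0.037), and WF 2 lay inside the Cop range. WF 2 also had the highest skeletal muscle score of its strain. Des lost its call under 9 of 22 alternatives. Skeletal muscle genes varied widely within both strains. Of 20 tested none passed limma's adjusted test and 6 had an unadjusted p under 0.05, at a median log2 change of 1.25. Their score was 2.17, -1.73, 0.96, 0.93 and -0.45 in the Cop arrays, against -0.87, 1.03, -1.52, -0.59 and -1.70 in the WF arrays. Their summed signal ran from 1782 to 30138 in Cop and from 2159 to 12115 in WF. Without Cop 2 or without WF 2, the lowest and the highest of their strains, 5 and 3 muscle genes passed as higher in Cop. The part of muscle in any result was not tested.

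**Figure D2:**
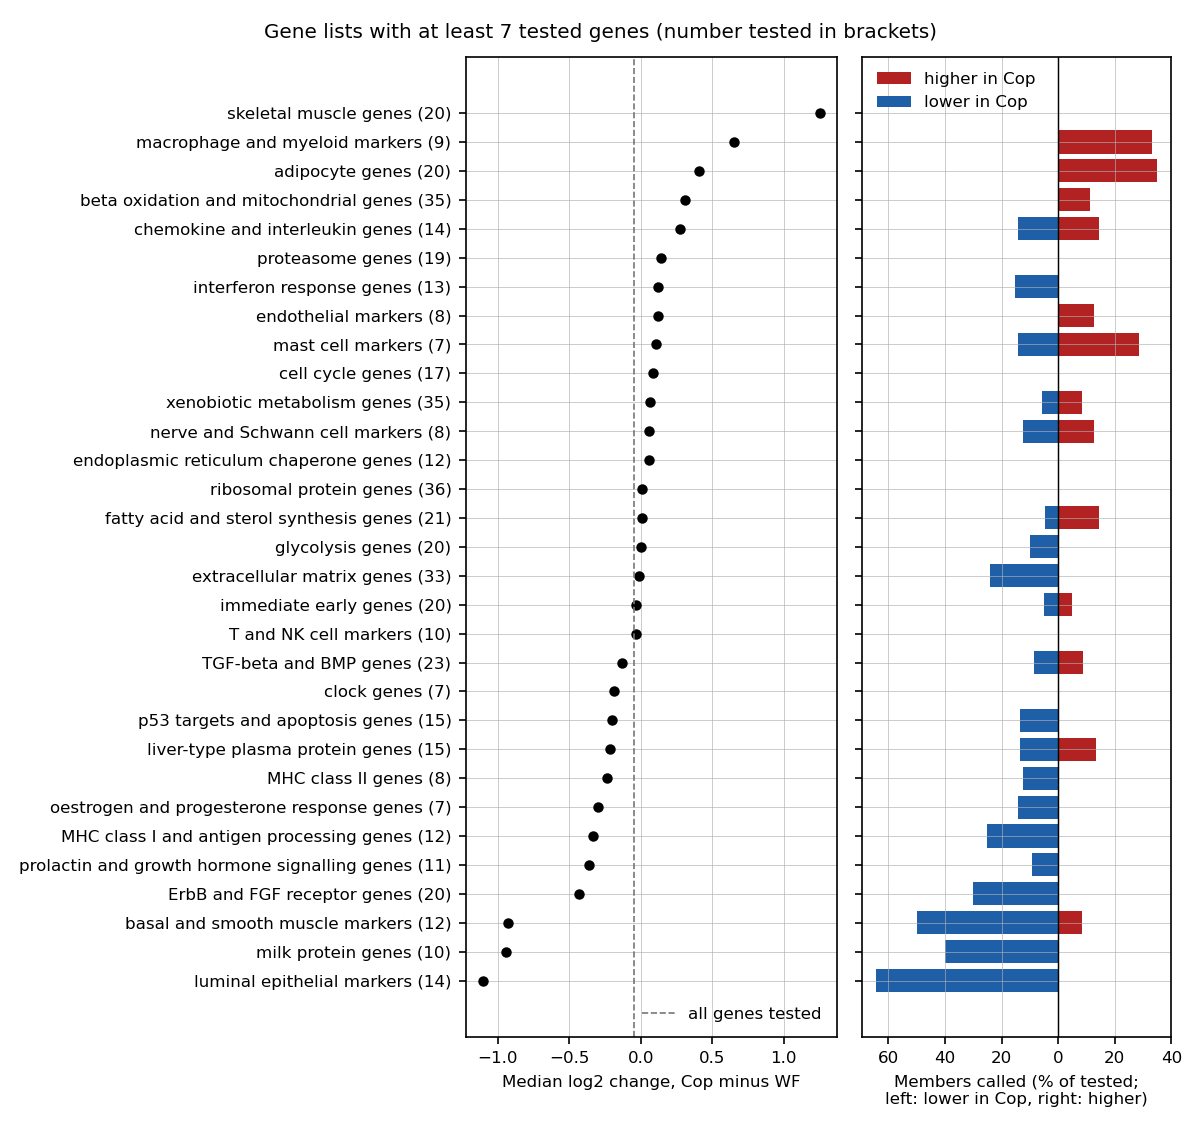
Left, the median log2 change (Cop minus WF) of each gene list with at least 7 tested genes, with the median of all genes (-0.05) as a dashed line; right, the percentage of tested members called higher (red, to the right) or lower (blue, to the left) in Cop. Luminal (-1.10), milk (-0.94) and basal (-0.93) lists lie lowest and skeletal muscle (1.25), with no member called, highest.

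Some adipocyte genes were higher in Cop. Of 20 tested, 7 rose, none fell and 13 did not pass, 19 changes were above 0, and the median was 0.41. Aqp7, the glycerol channel of adipocytes, had signals of 1586, 1413, 1264, 1329.5 and 1273 in the Cop arrays, against 823, 498, 471, 589.7 and 404 in the WF arrays (log2 change 1.34, SE 0.17, adjusted p = 1.4e-06). Lpl, lipoprotein lipase, had signals of 4904, 4314, 4627, 5197 and 4974 in the Cop arrays, against 2841, 2337, 3229, 3063 and 2691 in the WF arrays (log2 change 0.77, SE 0.11, adjusted p = 2.1e-05), and its other probe sets gave 1.06 and 0.81. Neither gene overlapped. The lipid droplet proteins Plin1 and Cidea changed by 1.03 and 0.95, the beta-3 adrenergic receptor Adrb3 by 1.02, the carbonic anhydrase Car3 by 0.60 and the natriuretic peptide clearance receptor Npr3 by 1.79. Leptin, adipsin (Cfd) and Gpd1 did not pass, at 0.11, 0.08 and 0.02. The count was 7 to 8 with 1 array left out and 7 to 10 under the other alternatives. The adipocyte score was 0.55, 0.41, 0.37, 0.42 and 0.23 in the Cop arrays, against 0.12, -0.13, -0.36, -0.24 and -0.17 in the WF arrays, without overlap. The summed signal of the list ran from 31466 to 38492 in Cop and from 23241 to 31622 in WF, and here WF 1 lay above Cop 5, the lowest of the Cop arrays.

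Genes of oxidation leaned the same way, with few calls. Of 35 beta oxidation and mitochondrial genes, 4 rose and none fell, 31 changes lay above 0, and the median was 0.31. Etfa, which passes electrons from fatty acid oxidation to the respiratory chain, had signals of 1126, 863, 888, 1011 and 1051 in the Cop arrays, against 403, 665, 641, 748 and 564 in the WF arrays (log2 change 0.73, SE 0.15, adjusted p = 0.0014). Sdha, of succinate dehydrogenase, changed by 0.71, Cs, citrate synthase, by 0.55, and Mdh2, malate dehydrogenase, by 0.44. The count of 4 fell to 2 without Cop 1, the array with the highest muscle score, and reached 12 without the 4 F1 and ACI arrays. Fatty acid and sterol synthesis gave 3 higher and 1 lower of 21, at a median of 0.01. The desaturases parted: Scd signals were 7587, 8039, 7806, 6894 and 5832 in the Cop arrays, against 7632, 4876, 3888, 3453 and 2651 in the WF arrays (log2 change 0.77, SE 0.23, adjusted p = 0.024), with WF 1 inside the Cop range, whereas Scd2 signals were 424, 584, 469.7, 477 and 998 in the Cop arrays, against 731, 1182, 1044, 1283 and 910.1 in the WF arrays (log2 change -0.85, SE 0.26, adjusted p = 0.029). A second Scd probe set gave 0.39 and was not called. All 5 Scd2 probe sets were called lower in Cop, but the call of the brightest was lost under 8 alternatives, 6 of which left out 1 array. Insig1, a brake on sterol synthesis, and Dhcr7, its last enzyme, rose by 0.98 and 0.94. Of 20 glycolysis genes 2 fell, Aldoc (-1.37) and Hk2 (-0.57). The calls of Cs, Mdh2, Scd and Hk2 were also lost in some fits with 1 array left out. Second probe sets of Mdh2 and Hk2 gave 0.19 and -0.69, not called.

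Macrophage genes gave 3 higher and none lower of 9, with a median of 0.65. C1qb, of the complement starter C1q, had signals of 1834, 2171, 1951, 2165 and 2165 in the Cop arrays, against 1225, 1184, 1117, 1563 and 1374 in the WF arrays (log2 change 0.68, SE 0.16, adjusted p = 0.0042), with no overlap. The lectin receptor Clec10a and the scaffold Aif1 changed by 0.70 and 0.83. Aif1 lost its call under 9 of 23 alternatives, among them leaving out any 1 array other than WF 4 or WF 5. Without WF 1 the count was 1, and without the 4 F1 and ACI arrays it was 5. In the mast cell list the direction was mixed. The inhibitory receptor Milr1 and the granule proteoglycan Srgn rose (1.07 and 0.87), while Kit, which luminal cells also carry, fell. None of 10 T and NK cell markers passed in limma (3 at an unadjusted p under 0.05), nor any of 3 B cell markers (0). Of 8 endothelial markers 1 rose, Kdr, the VEGF receptor (1.07).

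Extracellular matrix genes fell where they passed. Of 33 tested, 8 were lower and none higher in Cop, at a median of -0.01, so the list as a whole sat with all genes. Mmp2, gelatinase A, had signals of 420.2, 679, 649, 554 and 635 in the Cop arrays, against 1419.9, 1149.5, 1943, 1242 and 1407 in the WF arrays (log2 change -1.28, SE 0.17, adjusted p = 5.5e-06). Its activator Mmp14 had signals of 1807, 2241, 2307, 2675 and 2919 in the Cop arrays, against 4273, 4137, 3802, 3614 and 3336 in the WF arrays (log2 change -0.69, SE 0.16, adjusted p = 0.0033). Both genes were free of overlap. Mmp12 and the inhibitors Timp1 and Timp3 changed by -1.04, -0.55 and -0.80, and the small proteoglycans Bgn and Fmod by -0.59 and -1.17. Col2a1, the cartilage collagen, had signals of 27.7, 33.0, 51.4, 32.8 and 60.4 in the Cop arrays, against 148, 189, 300.1, 129 and 151 in the WF arrays (log2 change -2.15, SE 0.29, adjusted p = 6.5e-06).

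Some receptors and ligands of epithelial growth were lower. Of 20 genes of the ErbB, FGF and insulin-like growth factor systems 6 fell, none rose and 14 did not pass, with a median of -0.43. Erbb2 had signals of 63.7, 62.8, 95.3, 74.0 and 90.5 in the Cop arrays, against 148, 177, 156, 165 and 146 in the WF arrays (log2 change -1.05, SE 0.18, adjusted p = 0.00012). Its partner Erbb3 had signals of 100.2, 84.0, 142, 139 and 114 in the Cop arrays, against 327, 357, 281, 167 and 240 in the WF arrays (log2 change -1.23, SE 0.22, adjusted p = 0.00028). Neither overlapped, and Erbb3 of WF 4 came closest to Cop. The ErbB ligand Nrg1, the FGF receptor Fgfr2 and the binding protein Igfbp2 changed by -1.42, -0.92 and -1.84. The other Fgfr2 probe sets gave -0.75, called, and -0.40, not called. The imprinted transcript H19 had signals of 941, 249, 512, 707 and 221 in the Cop arrays, against 1002, 854, 1149, 929 and 921 in the WF arrays (log2 change -1.10, SE 0.35, adjusted p = 0.032), with Cop 1 inside the WF range and the call lost under 8 of 23 alternatives, and Igf2, its imprinted neighbour, changed by -0.64 (adjusted p = 0.0535). The other Igf2 probe sets gave -0.08 and -0.09 and were not called. Luminal and basal scores were lower in the same Cop arrays, and their part in the changes of these growth factor genes was not tested. Among 7 oestrogen and progesterone response genes 1 fell, the coactivator Cited1 (-1.60). The progesterone receptor Pgr changed by -0.45 and Ccnd1, cyclin D1, by 0.50, and neither passed, although another of 4 Ccnd1 probe sets did (0.97). Of 23 TGF-beta and BMP genes 2 rose, Bmp3 (1.74) and Id1 (0.77), and 2 fell, Msx1 (-1.86) and Tgfb3 (-1.10). The shares over all genes were 5.54% higher and 7.24% lower in Cop. A second Id1 probe set gave -0.14, not called.

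The largest differences lay in single genes, and several depended on the probe set. RT1-Bb encodes the beta chain of a class II molecule of the rat major histocompatibility complex, which presents peptides to T cells and whose sequence varies between strains. Set a (X56596_at) had signals of 845, 1007, 858, 963 and 1118 in the Cop arrays, against 84.6, 36.5, 45.6, 34.5 and 52.2 in the WF arrays (log2 change 4.31, SE 0.21, adjusted p = 7.9e-16). Set b (U65217_i_at) had signals of 1.1, 3.7, 2.8, 0.7 and 0.2 in the Cop arrays, against 429, 673, 252, 1000.4 and 967 in the WF arrays, all Cop arrays below the floor of 18.3, so that Cop was at least 32.1-fold lower (adjusted p = 2.3e-14). A further probe set gave -0.24 and was not called. F344 and ACI went with Cop, at 1168 ± 91.4 and 969.5 ± 269 for set a, and BUF/N went with WF, at 62.1 ± 11.97 (SD, n = 5 each). A difference in sequence under the probes and a difference in RNA level cannot be told apart. Of 8 class II genes with 1 probe set each, 1 fell, RT1-DMa (-0.58), and of 12 class I and antigen processing genes 3 fell, RT1-N3, the transporter Tap2 and the immunoproteasome subunit Psmb8 (-1.50, -0.83 and -0.77). All of these lie on chromosome 20 in the RefSeq GRCr8 gene table. A second RT1-DMa probe set gave -0.18 and was not called.

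**Figure D3:**
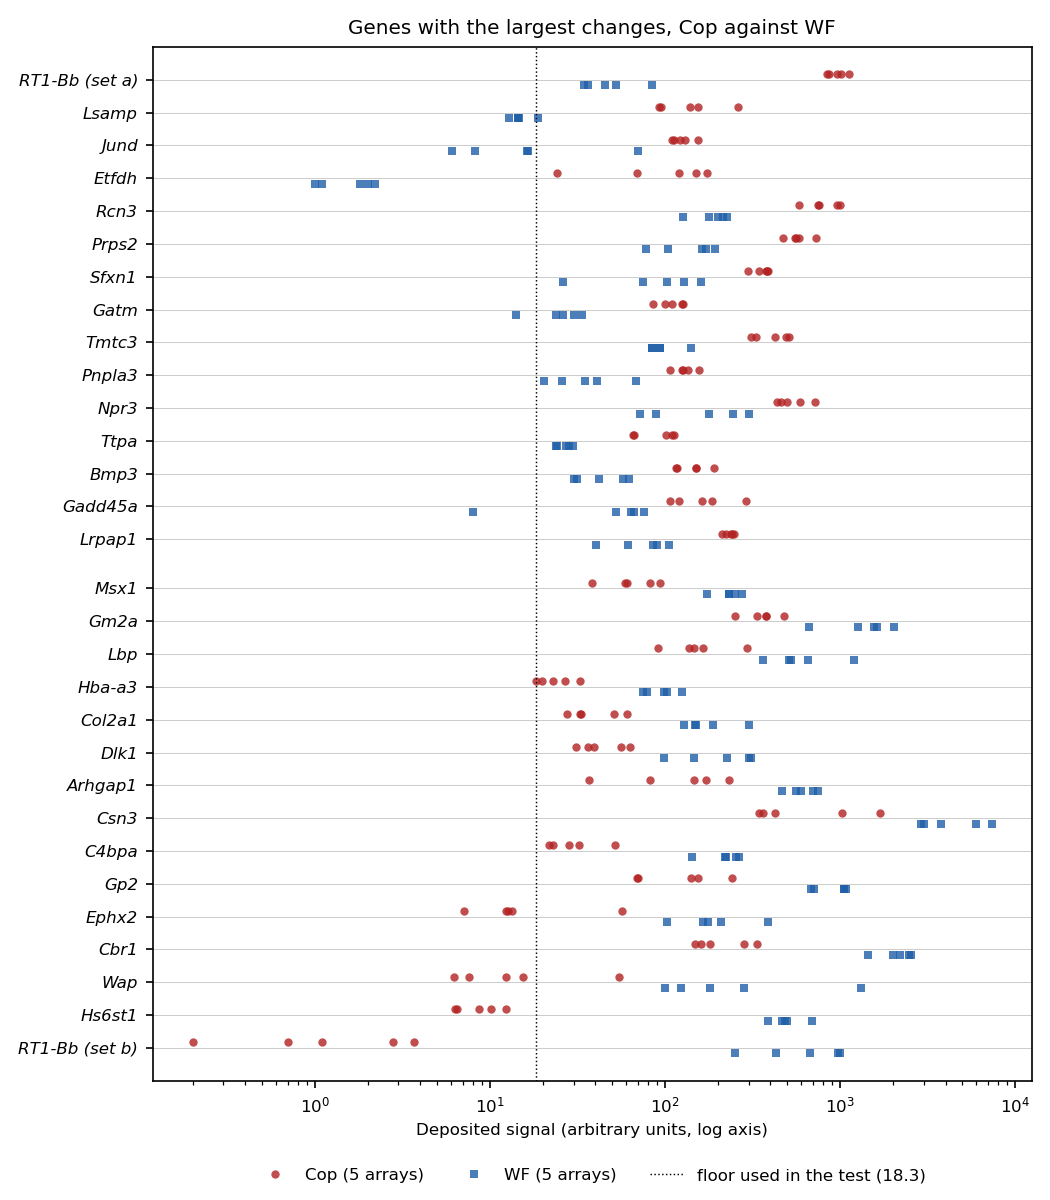
Deposited signals (log axis) of the 5 Cop arrays (red circles, upper row of each gene) and the 5 WF arrays (blue squares, lower row) for the 15 highest and 15 lowest changes among called probe sets without overlap; the dotted line is the floor of 18.3. RT1-Bb appears at both ends, through set a (4.31) and set b, whose Cop signals all lie under the floor.

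Hs6st1, a heparan sulfate 6-O-sulfotransferase, had signals of 6.5, 12.3, 8.6, 10.2 and 6.3 in the Cop arrays, against 385, 499, 687, 464 and 485 in the WF arrays. All Cop arrays were below the floor, and the signal was at least 27.0-fold lower in Cop (adjusted p = 1.8e-18). No other Hs6st1 probe set was tested, so a difference in sequence under its probes and a difference in RNA level cannot be told apart. Cbr1, a carbonyl reductase, had signals of 282, 148, 179.9, 160.1 and 337 in the Cop arrays, against 2204, 2483, 1438, 2010 and 2533 in the WF arrays (log2 change -3.32, SE 0.31, adjusted p = 1.5e-08), and a second probe set gave -2.59. Ephx2, soluble epoxide hydrolase, was called lower in Cop at 3 probe sets, with means of 20.4, 10.98 and 9.28 in Cop, against 208, 131.5 and 108 in WF. At least 4 of the 5 Cop arrays lay under the floor at each, so the floor sets the size of these changes and no fold is given. The brightest Ephx2 probe set gave -0.88 and did not pass. Gp2, a membrane glycoprotein best known from pancreatic granules, had signals of 141, 69.0, 154, 70.1 and 240.1 in the Cop arrays, against 681, 1074, 713, 1049 and 1056 in the WF arrays (log2 change -2.90, SE 0.39, adjusted p = 5.8e-06). For Hs6st1, Cbr1 and Gp2 the strains did not overlap, but no overlap was a condition for the list of leading genes. Over all tested probe sets 12.2% had no overlap.

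Further genes among the lowest in Cop were the complement regulator C4bpa (-2.86), Arhgap1 (-2.44), the preadipocyte factor Dlk1 (-2.18), the alpha-globin Hba-a3 (-2.01), the lipopolysaccharide binding protein Lbp (-1.96), the glycolipid carrier Gm2a (-1.91) and the homeobox gene Msx1 (-1.86). A second Arhgap1 probe set gave -0.70 and was not called.

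Higher in Cop were Lsamp, a neural adhesion protein, at 139, 92.3, 95.1, 155 and 261 in the Cop arrays, against 18.8, 14.5, 14.5, 12.8 and 14.6 in the WF arrays (log2 change 2.90, SE 0.39, adjusted p = 5e-06), and Jund, an AP-1 subunit, at 109, 112, 131, 154 and 122 in the Cop arrays, against 70.2, 16.3, 6.1, 16.4 and 8.2 in the WF arrays (log2 change 2.38, SE 0.36, adjusted p = 2.4e-05). WF signals of both were at or under the floor except Lsamp on WF 1 (18.8) and Jund on WF 1 (70.2), so the floor sets the size of both changes. Rcn3, a calcium-binding protein of the secretory pathway, had signals of 748, 963, 581, 760.2 and 1005 in the Cop arrays, against 178, 216, 201, 224 and 127 in the WF arrays (log2 change 2.10, SE 0.21, adjusted p = 4.5e-08). The second Rcn3 probe set gave 0.45 and was not called. Etfdh, a mitochondrial electron carrier, had signals of 69.6, 24.0, 174, 150 and 119.8 in the Cop arrays, against 2.0, 1.0, 1.8, 1.1 and 2.2 in the WF arrays, at least 4.80-fold higher in Cop. The other Etfdh probe sets gave 0.09 and 0.42, not called. Lrpap1, a chaperone of lipoprotein receptors, rose by 1.68 at 1 probe set and gave -0.13, -0.23 and -0.14, not called, at the others. The rest of the highest were Prps2 of nucleotide synthesis (2.10), the mitochondrial serine carrier Sfxn1 (2.09), Gatm of creatine synthesis (2.06), Tmtc3 (2.06), the lipase Pnpla3 (1.89), Npr3, the vitamin E carrier Ttpa (1.74), Bmp3 and the growth arrest gene Gadd45a (1.70), whose other 3 probe sets were not called.

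**Figure D4:**
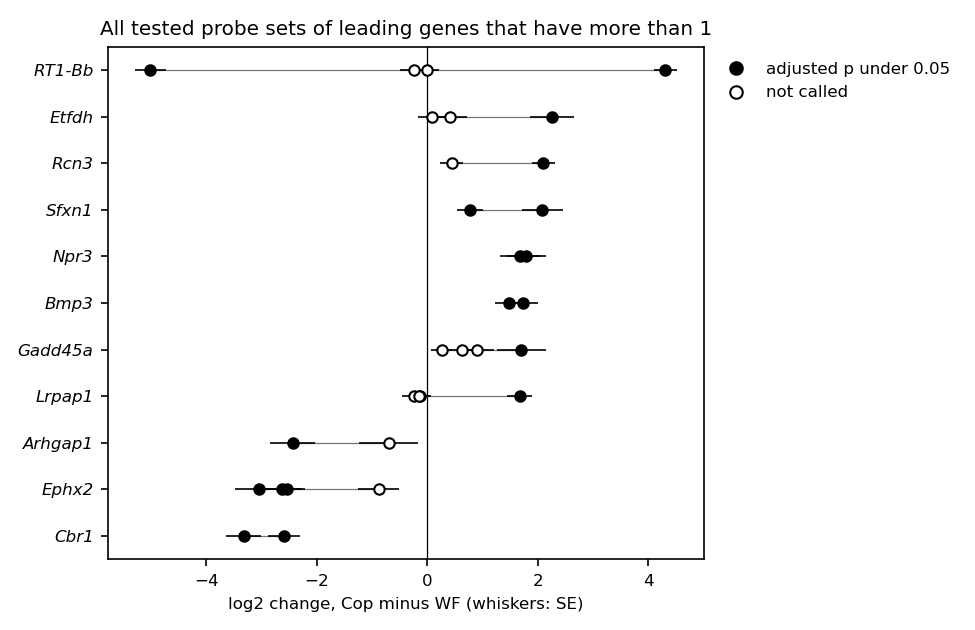
Log2 change (Cop minus WF, whiskers SE) of every tested probe set of the leading genes that have more than 1; filled points passed at an adjusted p under 0.05 and open points did not. Cbr1, Npr3 and Bmp3 repeat their change, while RT1-Bb has calls in both directions (set b is a bound, with Cop under the floor) and Lrpap1 has 1 called and 3 uncalled probe sets.

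Agreement between probe sets of a gene was counted over all calls with 1 symbol. Another tested probe set existed for 292 of them. For 168 such calls a second probe set was called the same way, for 118 none was called, and for 6 a second was called the opposite way. The 6 came from RT1-Bb, Nap1l1 and Psap, named here after their values were seen. Nap1l1, a histone chaperone, gave -0.72 and 0.79, and Psap, the saposin precursor, -0.61 and 0.39.

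The other inbred strains placed a difference on either side of the pair. Against the mean of F344, ACI and BUF/N, 453 probe sets (8.99%) differed in Cop, 222 higher and 231 lower, and 180 (3.57%) in WF, 96 higher and 84 lower. Both contrasts use the same 15 reference arrays, so they are given side by side. Of the 14 luminal markers 2 were higher and 10 lower in Cop, at a median of -0.85, and 2 were higher and 1 lower in WF, at 0.28. Of 10 milk genes 4 were lower in Cop (median -1.04), and none passed in WF (-0.19). Of 12 basal genes none was higher and 2 were lower in Cop (-0.35), and 4 were higher and none lower in WF (0.42). Of 20 adipocyte genes 8 were higher in Cop (0.43), and 4 were lower in WF (-0.07). Of 20 ErbB and FGF genes 6 were lower in Cop (-0.25), and none passed in WF (0.16). Over all genes 4.59% were higher and 4.62% lower in Cop in that contrast, and 1.70% higher and 1.51% lower in WF. The mean of F344, ACI and BUF/N did not stand for each strain. Milk scores averaged -1.26 in Cop, 0.01 in WF, -0.79 in F344, 0.46 in ACI and 0.76 in BUF/N. Luminal scores averaged -0.49, 0.33, -0.14, -0.31 and 0.33 in the same order. Basal scores averaged -0.27, 0.23, -0.21, 0.02 and -0.001. All F344 milk scores (-1.17 to -0.37) and all ACI luminal scores (-0.49 to -0.16) lay inside the Cop ranges. The F344 milk range also overlapped that of WF.

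A stricter call, apart in a strain, required a pass in 1 direction in all 4 comparisons with the other inbred strains. In Cop 36 were apart (0.714%), 16 higher and 20 lower. In WF 19 were apart (0.377%), 7 higher and 12 lower. These counts were not stable: those in Cop were 19 without Cop 2, 20 without Cop 4, 22 without Cop 1, 60 without the 4 F1 and ACI arrays and 88 with array weights, and those in WF were 11 without WF 5, 29 without the 4 F1 and ACI arrays and 39 with array weights. Among those apart in Cop, Hs6st1 differed most, at 8.78 ± 2.54 in Cop, against 504 ± 111 in WF, 455 ± 66.9 in F344, 798 ± 235 in ACI and 558 ± 94.8 in BUF/N (SD, n = 5 each). The F1 hybrid, with 1 Cop parent, had 284 ± 47.9. Arhgap1, C4bpa, Msx1, Aldoc and Col2a1 were also apart as lower. Lsamp, Sfxn1, Plpp1, Milr1, Gstt2 and Itga7 were apart as higher, where Plpp1 is a lipid phosphatase and Itga7 a laminin receptor of muscle. Plpp1 signals at 1 probe set were 610.3, 484, 392, 577 and 643 in the Cop arrays, against 216, 353, 224, 366 and 319 in the WF arrays (log2 change 0.88, SE 0.22, adjusted p = 0.0056), and another Plpp1 probe set was not called (0.17). With each array of the pair left out in turn, Aldoc stayed apart in 4 of 10 fits, Sfxn1 and Col2a1 in 5, Itga7 in 8 and Lsamp in 9, and the others named here in all 10. The luminal genes Prlr and Cldn3 were also apart as lower in Cop and stayed so in 6 and 7 fits, and the chemokine Pf4 was apart as higher in all 10.

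**Figure D5:**
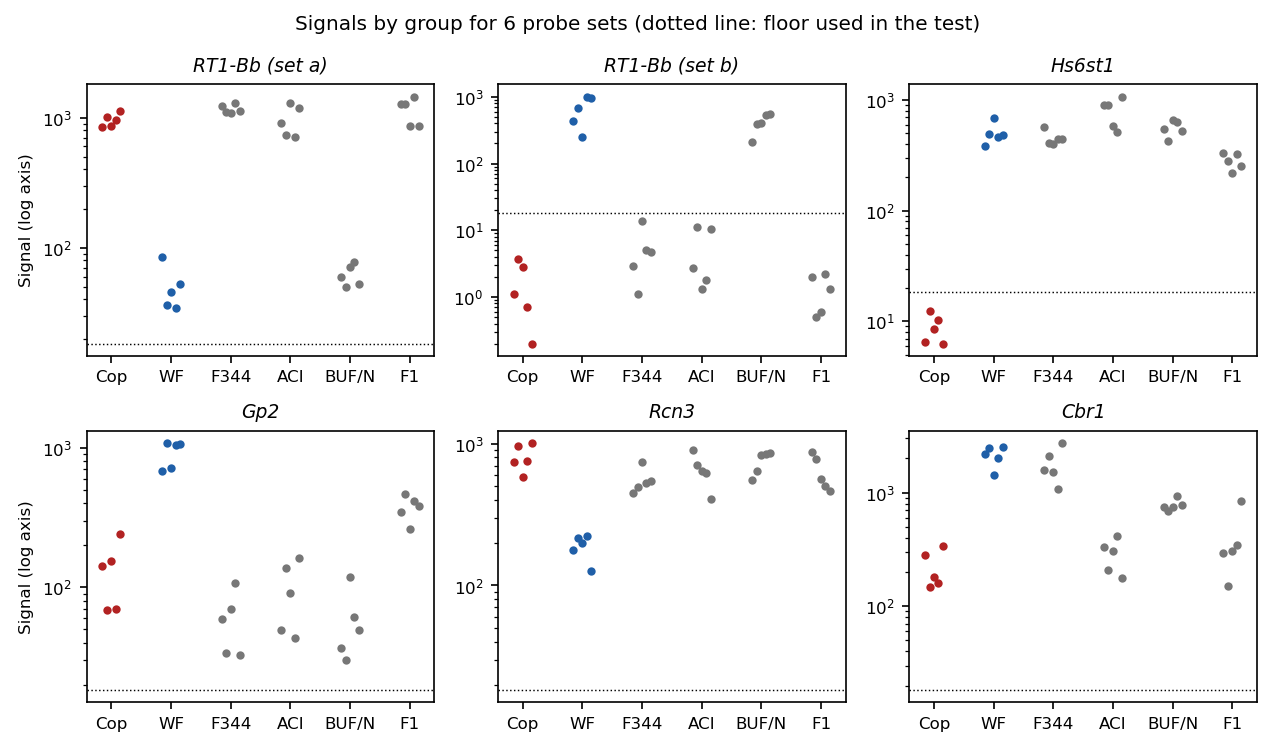
Signals (log axis) of 6 probe sets in the 5 arrays of each group, Cop in red, WF in blue and the others in grey; the dotted line is the floor of 18.3. BUF/N lies with WF for RT1-Bb, Cop alone lies under the floor for Hs6st1, WF is the inbred strain with high Gp2 and low Rcn3, and ACI lies near Cop for Cbr1.

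Among those apart in WF, Gp2 differed most, at 915 ± 199 in WF, against 135 ± 70.8 in Cop, 60.6 ± 30.7 in F344, 96.7 ± 52.5 in ACI and 59.0 ± 35.1 in BUF/N. Nptx2, Mmrn1, the glutathione transferase Gsta4 and the proteasome subunit Psmb4 were higher in WF too. The F1 hybrid was not part of this call, and its Gp2 signals were 345.2, 464.9, 263.3, 413.1 and 382.5. Nptx2 ran from 97.8 to 259.8 in F1 and 92.3 to 252.9 in WF, and Psmb4 from 957.1 to 1942.8 and 1703.9 to 2075.2. Mmrn1 ran from 84.5 to 217.2 in F1 and 151.2 to 213.8 in WF, and Gsta4 from 111.0 to 225.6 and 381.7 to 482.7. The Psmb4 difference was seen at 1 probe set (-1.0), and the others gave -0.17 and 0.16, not called. Second probe sets of Nptx2 and Gsta4 gave -0.43 and -0.40, not called. Etfdh, Rcn3, Gstt2, Dhcr7, Vat1 and Dpyd were apart as lower in WF. A second Dpyd probe set gave 0.45 and was not called. Gstt2, a glutathione transferase, had a probe set apart in each strain. At that apart in WF, signals were 190.2, 200.1, 242, 229.5 and 203 in the Cop arrays, against 69.4, 94.3, 63.6, 70.9 and 57.3 in the WF arrays (log2 change 1.60, SE 0.18, adjusted p = 4.1e-07). At that apart in Cop they were 411, 452, 426, 377 and 325 in the Cop arrays, against 332, 261, 264, 157 and 239.7 in the WF arrays (log2 change 0.70, SE 0.18, adjusted p = 0.0072). Both were higher in Cop than in WF, but against the other 3 strains the first gave -0.90 for Cop and -2.50 for WF and the second 0.95 and 0.25. With each array of the pair left out in turn, Gsta4 stayed apart in 6 of 10 fits, Nptx2 and Mmrn1 in 7 and Dpyd in 9, and the others named here in all 10. Aqp7 was apart as lower in WF in all 10.

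The counts of the following lists stand beside 5.54% of all genes higher and 7.24% lower in Cop. Whether these lists exceeded those shares was not tested. Of 35 genes of xenobiotic metabolism 3 rose, Gstt2, Gstt1 (0.64) and Gstm1 (0.50), and 2 fell, Cbr1 and Gsta4 (-0.73). Cyp1b1, a carcinogen-activating cytochrome, and Gstp1 did not pass (0.51 and -0.21). Of 15 p53 and apoptosis genes 2 fell, Ccng1 (-1.27) and Clu (-0.70), but Clu lost its call under 13 of 23 alternatives, among them leaving out any 1 array other than Cop 3. Of 15 liver-type plasma proteins the retinol carrier Rbp4 (0.84) and the protease inhibitor Serpina3n (0.68) rose, and C4bpa and ceruloplasmin Cp (-1.27) fell. The other Rbp4 probe sets gave 1.17, called, and 1.84, not called. Of 14 chemokine and interleukin genes Pf4 (0.66) and Il6r (0.67) rose and Il18 (-1.25) and Cx3cl1 (-0.78) fell. Of 13 interferon response genes Psmb8 and Oas1a (-0.58) fell. Of 8 nerve and Schwann cell markers Pmp22 rose (0.46) and Cnp fell (-0.85), and of 20 immediate early genes Jund rose and Ier3 fell (-1.19). Second probe sets of Pmp22 and Ier3 gave 0.03 and -0.80, not called. With 1 array left out in some fits, the calls of Gstm1, Gsta4, Serpina3n, Il6r, Cx3cl1, Oas1a and Pmp22 were lost as well. In 6 further lists no member passed the limma test. They held 36 ribosomal protein genes (0 at an unadjusted p under 0.05), 19 proteasome genes (2), 17 cell cycle genes (1), 12 endoplasmic reticulum chaperone genes (2), 7 clock genes (1) and 4 red cell genes (0). Their medians lay between -0.19 and 0.14.

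Of 6 listed candidate genes of the Mcs1 region only 2 were on the array, Nr2f1 and Map3k1, and neither passed. Nr2f1, an orphan nuclear receptor, had signals of 154, 140.4, 124, 169 and 261 in the Cop arrays, against 131, 259, 173, 206 and 134 in the WF arrays (log2 change -0.09, SE 0.21, adjusted p = 0.83). Map3k1, a kinase of the stress pathway, had signals of 665, 739.9, 1033, 564 and 436 in the Cop arrays, against 1019, 575, 884, 807 and 946 in the WF arrays (log2 change -0.33, SE 0.22, adjusted p = 0.36). The ranges of both genes overlapped fully. Both lie on chromosome 2 in the RefSeq GRCr8 gene table, where 21 of 192 tested genes were called (10.9%). The Mcs loci of this cross have been placed on chromosomes 2, 7, 1 and 8, and 26 of 231 genes were called on chromosome 7 (11.3%), 61 of 395 on chromosome 1 (15.4%) and 18 of 170 on chromosome 8 (10.6%). Over the chromosomes the share ran from 8.0% on chromosome 17 to 20% on the X chromosome, against 12.8% of all genes.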

How the data were processed

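The deposited values were Affymetrix probe set intensities (signals) that the authors computed with Microarray Suite 5.0, per the labels, from RNA extracted with a column kit, lithium chloride precipitated and labelled from 5 µg of total RNA. From the values, the deposited intensities are linear and share one trimmed mean on every array (249.99, with 2% left out at each end), so they were not rescaled. Scanner files were not used here. Samples were grouped by their titles.

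Signals below a floor of 18.3, their 25th percentile, were raised to it before taking log2. Tests covered the 5039 probe sets, of 8799, with a signal over 78.4, the median of all signals, on 5 or more of the 30 single-sample arrays; 59 control probe sets stayed out. Limma 3.58.1 in R 4.3.3 (lmFit and eBayes with a variance trend) fitted the 6 group means, and the Cop minus WF contrast was adjusted by the Benjamini-Hochberg method at 0.05. Symbols came from the platform table, updated through RefSeq GRCr8; 7018 probe sets had 1, 308 several and 1473 none. Gene lists used for each gene the probe set of highest mean log2 signal. The procedure was tested on simulated data.

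Named were the 15 highest and 15 lowest called probe sets with 1 symbol and no overlap, up to 4 called members of each list in each direction by adjusted p, up to 6 genes apart in each strain and direction, and 20 further genes whatever their result, of which Esr1 did not reach the filter. Remaining members of short lists were named after their values were seen. The comparison, the lists and the 20 genes were chosen with earlier results of these data known. Same-numbered arrays of the strains deviated with correlations of -0.45 to 0.00, and they were not treated as pairs. As probe sets are not independent, these correlations cannot exclude handling shared by number. The alternatives changed the floor, the filter, the scaling, the arrays in the fit, the weights, the variance trend and the replicate block, took the Cop pool as a sixth Cop array, and left out each array of the pair.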

Additional observations from a re-analysis of the deposited data

Results flagged for a closer look

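Each of the following signals lay far from the other 4 arrays of its strain, with a gap to the nearest of more than 0.71 of the strain's range. Of 224 sets of 5 signals checked, 16 held such an array. For normally distributed values chance flags about 1 in 20. The signals here were linear and the sets share arrays, so that rate may not hold for them. Cop 5 was high for Csn2 (550.5, the others 10.8 to 46.3), Wap (54.6, the others 6.2 to 15.5), Tagln (1314.1, the others 741.2 to 892) and Scd2 (998.5, the others 424.2 to 583.9). WF 3 was high for Csn2 (3201.3, the others 178.4 to 950), Wap (1307.8, the others 99.4 to 281.6) and Lcn2 (4792, the others 1852.1 to 2112.4), and low for Kit (258.2, the others 387 to 430.3). The milk genes Csn2 and Wap were thus far from the rest in 1 array of each strain.

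The remaining 8 were spread over 7 arrays. Ephx2 was high on Cop 2 (56.8, the others 7.1 to 13.3), Aif1 on Cop 4 (491.7, the others 392.1 to 416.7) and Ccng1 on Cop 1 (446.4, the others 210.6 to 278.5). In WF, Jund was high on WF 1 (70.2, the others 6.1 to 16.4), as was Cldn3 (1727.3, the others 1171.3 to 1306.1). Tmtc3 was high on WF 5 (140.2, the others 83.7 to 94.2) and Des on WF 2 (110.5, the others 14.4 to 24), while Pmp22 was low on WF 4 (1783.5, the others 2060 to 2171.7).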

How the results depend on the processing

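Of 102 named probe sets called, 81 stayed called under every one of 23 alternatives where they were tested, and 21 lost the call under at least 1, those of Des, Dpyd, Aif1, Scd, Clec10a, Serpina3n, Il6r, Cs, Gstm1, Pmp22, Mdh2, Hk2, RT1-DMa, Oas1a, Clu, Gsta4, Cx3cl1, Scd2, H19, Aldoc and Csn2. Igf2 and the brightest Ephx2 probe set gained a call under some. Nr2f1, never called, turned sign under quantile normalization (0.0067) and median centring (0.019), and ran from -0.26 to 0.052 with 1 array left out. Centring on medians took the lower calls to 225. Without F1 2, F1 3, ACI 2 and ACI 5, 1006 probe sets were called, 583 of them lower in Cop; 790 were called for Cop and 276 for WF against the mean of F344, ACI and BUF/N, and 60 were apart in Cop and 29 in WF. Array weights gave 796 and 345 against that mean, and 88 apart in Cop and 39 in WF. With 1 array left out, the calls ran from 465 (without Cop 1) to 614, higher from 216 to 274 and lower from 249 to 351. Against the mean of the 3 strains, Cop gave 287 (without Cop 1) to 507 calls, with 289 without Cop 2, and WF 130 to 183. Apart in Cop were 19 (without Cop 2) to 48, with 22 without Cop 1 and 20 without Cop 4, and apart in WF 11 (without WF 5) to 23. The causes of these shifts were not tested. The fit with the replicate block gave 630 calls, and the block changed 1 call among named genes, that of Clu (adjusted p = 0.0612). The Cop pool as a sixth Cop array gave 771. The fit on the Cop and WF arrays alone gave 664, 302 of them higher and 362 lower in Cop. In that fit Dpyd, Serpina3n, Cs, Gstm1, Hk2, H19 and Aldoc lost their calls. Of 782 list medians recomputed 17 moved, and of 1564 list counts 161. Signals near the floor limit what can be said of dim probe sets, and arrays give no counting error.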
